A study of Mus musculus with 8 samples.

Results

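The miR-23/27/24 clusters are a pair of duplicated miRNA clusters, and 8 of their mature products are rows of the deposited table of 422 miRNAs from the mouse hippocampus. The members were chosen by name, as products of the miR-23a/27a/24-2 cluster (a cluster) or of the miR-23b/27b/24-1 cluster (b cluster), and not by their values. Earlier results of these data were known when this choice was made. The a cluster gives mmu-miR-23a-3p, mmu-miR-27a-3p and mmu-miR-24-2-5p, and the b cluster gives mmu-miR-23b-3p, mmu-miR-27b-3p, mmu-miR-27b-5p and mmu-miR-24-1-5p (without the species prefix from here on). mmu-miR-24-3p has the same mature sequence in both clusters and was counted in 1 row. Small RNA was sequenced from the hippocampi of single adult male mice at 12 weeks of age, 4 of the inbred strain BTBR T+ Itpr3tf/J (BTBR), a model of autism, and 4 of the control strain C57BL/6J (B6). The mice carried no transgene and received no treatment, so that strain, which stands for the whole genetic background and not for 1 locus, was the comparison of the study.

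Each cluster is transcribed as 1 primary RNA that holds 3 hairpins, which Drosha and Dicer cut into mature miRNAs of about the same length. The arm that is loaded into Argonaute and pairs with target mRNAs through its seed is called the guide, and the other arm, the passenger, is mostly degraded. miR-23, miR-27 and miR-24 are known as abundant miRNAs of endothelial and other vascular cells, where they act in blood vessel growth, and they are also made in neurons and glia. miR-27 is also known for repressing genes of lipid metabolism and adipogenesis.

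The a cluster hairpins lie on the plus strand of chromosome 8 of GRCm38, Mir23a from 84208518 to 84208592, Mir27a from 84208672 to 84208758 and Mir24-2 from 84208815 to 84208921, a stretch of 404 bases. GENCODE M21 places Mir24-2 in an exon of the lincRNA Gm26532 and the other 2 outside other genes. The b cluster hairpins lie on the plus strand of chromosome 13, Mir23b from 63300484 to 63300557, Mir27b from 63300712 to 63300784 and Mir24-1 from 63301208 to 63301275, a stretch of 792 bases. They fall within the protein-coding gene 2010111I01Rik on the same strand, Mir23b in an intron and Mir27b and Mir24-1 in annotated exons, and opposite an intron of Fancc.

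The mature sequences show why the clusters are compared pair by pair. 7 of the 8 members matched a mature sequence by name in RefSeq (GRCm38.p6), and miR-23b-3p did not. The sequences are written 5′ to 3′, with the seed, bases 2 to 8, in capitals.
miR-23a-3p: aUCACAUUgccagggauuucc
miR-27a-3p: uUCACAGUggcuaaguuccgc
miR-27b-3p: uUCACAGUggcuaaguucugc
miR-24-3p: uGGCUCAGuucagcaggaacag
miR-24-2-5p: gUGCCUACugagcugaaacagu
miR-24-1-5p: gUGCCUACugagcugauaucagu
miR-27b-5p: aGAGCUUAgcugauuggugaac
miR-27a-3p and miR-27b-3p have the same seed and differ by 1 base, C19U counted from the 5′ end of miR-27a-3p. They share their first 18 bases. The passenger arms miR-24-2-5p and miR-24-1-5p also have the same seed and share their first 16 bases. A read that ends within these shared bases matches both paralogs. In the study's own table the counts of both miR-23 guides are fractional in the same libraries, as are those of both miR-27 guides, which is what dividing a read between paralogs would give. Whether reads were divided, and how many, is not known from the counts. Each a over b ratio and each relation between paralogs below may therefore hold an unknown number of shared reads.

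Counts on miRNAs summed to between 5078301 and 5792967 per library in B6 and between 2247482 and 7904990 in BTBR mice, and levels are given in CPM, the count relative to the library total after TMM normalization. The neuronal list (miR-124-3p, miR-128-3p and miR-9-5p) was high in every library, with a summed level of 47796 to 76048 CPM. B6 replicate 1 stood apart in the choroid plexus list, with 39114 CPM against 5091 to 16050 CPM in the other libraries, and BTBR replicate 2 was the shallowest library.

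miR-24-3p and miR-27b-3p carried most of the output of the clusters. Together, the 8 members took between 0.521% and 1.01% of the counts of a library. miR-24-3p alone made up 45.5% to 57.1% of the member counts and miR-27b-3p 36.5% to 43.4%, and the other 6 members shared 6.42% to 13.9%. By mean level over the 8 libraries miR-24-3p was the 29th and miR-27b-3p the 35th most abundant of the 422 miRNAs, while miR-24-1-5p was the 342nd. How evenly the library kit captures each sequence is not known from the counts, so levels of different miRNAs are compared as sequenced.

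miR-24-3p, the guide shared by both clusters, stood at 4665, 3826, 4739.6 and 4431 CPM in B6 replicates 1 to 4, and at 5543, 2602, 4024 and 3649 CPM in BTBR replicates 1 to 4. BTBR held both the highest and the lowest library, and all B6 mice lay between them. miR-27b-3p, the miR-27 guide of the b cluster, stood at 3283, 3643, 3284 and 3339.6 CPM in the B6 mice, and at 3543, 1929, 3316 and 2938 CPM in the BTBR mice. The B6 mice lay close together, and BTBR replicate 2 was far below the other libraries. The passenger miR-27b-5p stood at 61.0, 42.3, 57.3 and 61.3 CPM in the B6 mice, and at 56.5, 35.9, 51.6 and 51.0 CPM in the BTBR mice, with BTBR replicate 2 and B6 replicate 2 lowest.

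miR-23a-3p stood at 119.9, 204, 102 and 101 CPM in the B6 mice, and at 123, 182, 222 and 164 CPM in the BTBR mice. miR-27a-3p stood at 122, 240.1, 88.4 and 91.9 CPM in the B6 mice, and at 107, 160.3, 268 and 139.9 CPM in the BTBR mice. miR-23b-3p stood at 158, 255.8, 144 and 151 CPM in the B6 mice, and at 175, 229, 236 and 186 CPM in the BTBR mice. All 3 were highest in the same 4 libraries, B6 replicate 2 and BTBR replicates 2, 3 and 4. B6 replicate 2 alone made the strains overlap in miR-23a-3p and miR-23b-3p, and in miR-27a-3p BTBR replicate 1 also lay below B6 replicate 1.

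miR-24-2-5p, the 5p arm of the a cluster's miR-24 hairpin, stood at 198, 187, 153 and 137 CPM in the B6 mice, and at 156, 119, 163 and 188 CPM in the BTBR mice, with the strains mixed. miR-24-1-5p, the 5p arm of the b cluster's miR-24 hairpin, was the scarcest member, with 28, 33, 33 and 39 reads in B6 and 44, 8, 18 and 75 reads in BTBR mice. These counts correspond to 5.37 to 8.76 CPM in B6 and 3.59 to 9.04 CPM in BTBR mice. A library with 8 reads leaves a large counting error, and differences below the spread of this miRNA were not detectable at this depth.

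**Figure D1:**
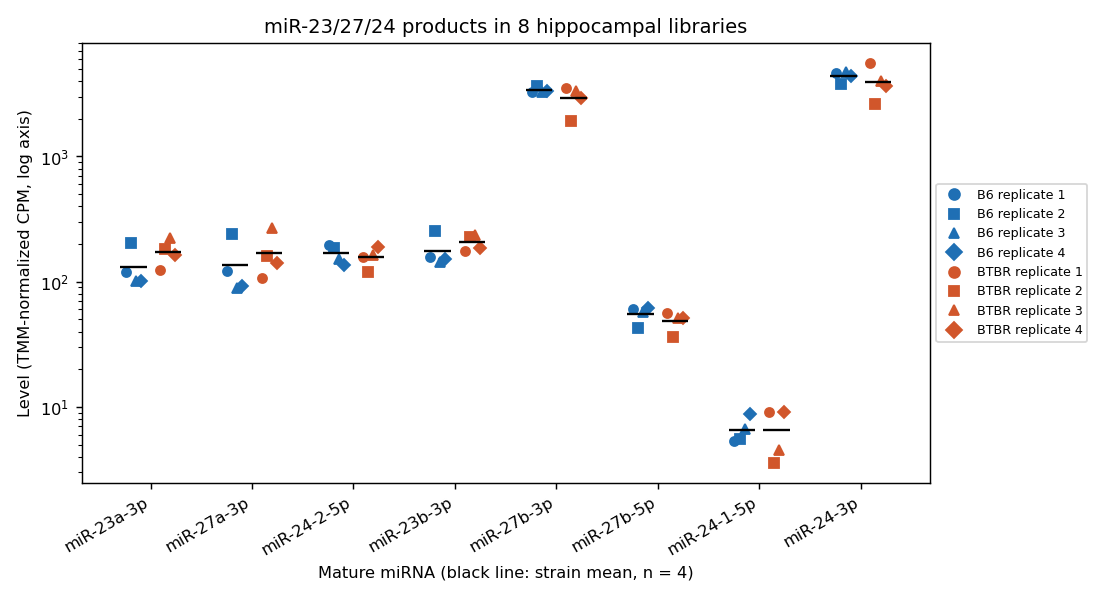
Level of each of the 8 miRNAs (CPM after TMM normalization, log axis) in each library, with B6 in blue, BTBR in orange, symbols for replicate numbers and black lines for strain means (n = 4). miR-24-3p and miR-27b-3p sit above the other 6 miRNAs in every library, and for every miRNA the points of the strains overlap.

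No difference between BTBR and B6 mice passed the test in any of the 8 miRNAs. With p-values adjusted by Benjamini and Hochberg's method over all 422 miRNAs, the quasi-likelihood test of edgeR called 0 of 8 members at an adjusted p under 0.1, against 1.66% of all miRNAs. That share is 7 miRNAs, and the count was 3 without BTBR replicate 3 or 4, 4 without BTBR replicate 1, 13 without B6 replicate 2, 4 on total counts and 3 with a replicate block, with no member among them. At an unadjusted p under 0.05 the count was 0 of 8, against 10.9% of all miRNAs, and the strains were free of overlap in 0 of 8 members, against 6.64%. The DESeq2 Wald test also called 0 of 8 members, against 5.65% of the 372 miRNAs to which it gave an adjusted p, and limma-voom 0 of 8, against 1.42% of all miRNAs. With so few members, these counts do not set the clusters apart from other miRNAs. The log2 fold changes of BTBR over B6 were above 0 in 4 members and below 0 in 4, with a median of −0.04, beside 0.02 for all miRNAs. Scaling to total counts alone put 6 members above 0 and 2 below, with a median of 0.11 beside 0.15 for all miRNAs, and relative to the median of all miRNAs the split was 4 to 4 under both scalings.

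The highest log2 fold change was that of miR-23a-3p, which averaged 132 ± 48.9 CPM (SD, n = 4) in the B6 mice against 173 ± 41.1 CPM in the BTBR mice. It was 0.39, with a standard error of 0.28 and a 95% interval from −0.23 to 1.01 (edgeR, adjusted p = 0.655). miR-27a-3p averaged 136 ± 71.3 CPM against 169 ± 69.7 CPM, and its log2 fold change was 0.31, within an interval from −0.49 to 1.12 (edgeR, adjusted p = 0.787). miR-23b-3p averaged 177 ± 52.8 CPM against 206 ± 30.7 CPM, with a log2 fold change of 0.22 and an interval from −0.30 to 0.74. For all 3, the distance between the strain means was no larger than the SD within either strain.

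miR-27b-3p averaged 3387 ± 172 CPM in the B6 against 2931 ± 714 CPM in the BTBR mice, a log2 difference of −0.21 (standard error 0.20) within an interval from −0.66 to 0.24 (edgeR, adjusted p = 0.731). miR-27b-5p averaged 55.5 ± 8.97 and 48.8 ± 8.92 CPM, with a log2 fold change of −0.18 and an interval from −0.71 to 0.34. miR-24-3p averaged 4415 ± 414 and 3954 ± 1218 CPM, with a log2 fold change of −0.16 and an interval from −0.65 to 0.33. The miR-24 5p arms lay closest to 0, with −0.10 for miR-24-2-5p (interval −0.59 to 0.38) and 0.03 for miR-24-1-5p (interval −0.87 to 0.92). These intervals leave room for changes of more than 2-fold only for miR-23a-3p and miR-27a-3p, and for changes near that size for miR-24-1-5p. Permuting the strain labels of the mice in all 70 ways gave an exact two-sided p between 0.229 for miR-23a-3p and 0.8286 for miR-24-1-5p, with 0.0286 as the lowest that 4 against 4 mice allow.

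**Figure D2:**
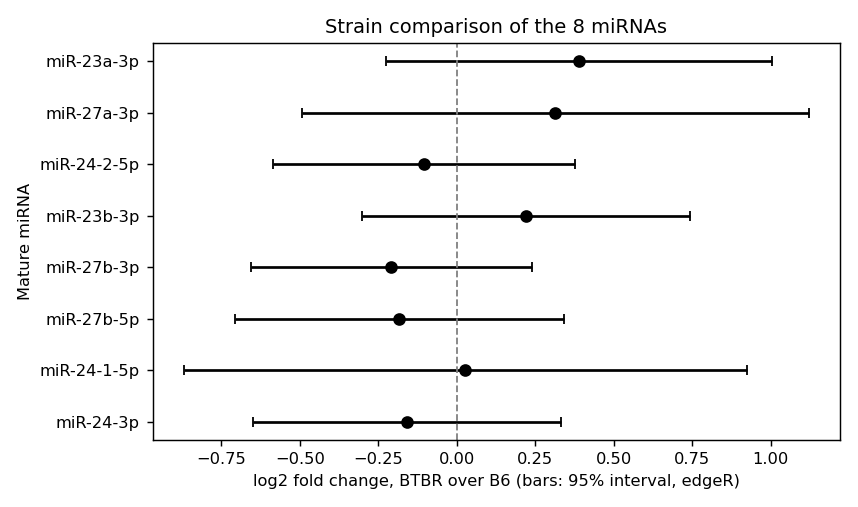
log2 fold change of BTBR over B6 for each of the 8 miRNAs, from edgeR's quasi-likelihood fit on 4 libraries per strain, with bars for the 95% interval and a dashed line at 0. Every interval includes 0, from miR-23a-3p at 0.39 to miR-27b-3p at −0.21.

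Single mice moved these values, but none brought a member past the threshold. When B6 replicate 2 was left out, log2 fold changes were 0.71 for miR-23a-3p, 0.78 for miR-27a-3p and 0.48 for miR-23b-3p (edgeR, adjusted p = 0.207, 0.314 and 0.334). The lowest values of miR-23a-3p and miR-23b-3p, 0.24 and 0.085, came without B6 replicate 3, and that of miR-27a-3p, −0.00096, came without BTBR replicate 3. The 2 abundant guides moved most with BTBR mice. miR-24-3p was at −0.37 without BTBR replicate 1 and at −0.032 without BTBR replicate 2, and miR-27b-3p at −0.31 and −0.080 without the same mice. miR-27b-5p ranged from −0.27 without B6 replicate 2 to −0.094 without BTBR replicate 2, and miR-24-2-5p from −0.25 without BTBR replicate 4 to −0.017 without BTBR replicate 2. The direction of miR-24-1-5p was not stable, at −0.23 without BTBR replicate 4, 0.18 without BTBR replicate 3 and −0.070 with a replicate block. On total counts, miR-24-2-5p was at 0.033 and miR-24-3p at 0.0068, both turned in direction. The summed level of red blood cell markers moved with miR-23a-3p, miR-27a-3p and miR-23b-3p. The summed level of the list (miR-451a, miR-144-3p, miR-144-5p and miR-486a-5p) was 422, 853, 303 and 309 CPM in B6 replicates 1 to 4 and 531, 1371, 1364 and 1082 CPM in BTBR replicates 1 to 4, with 1 of its 4 members, miR-451a, called higher in BTBR. miR-486a-5p made up most of the summed level, with 367, 778, 258 and 264 CPM in B6 replicates 1 to 4. In BTBR replicates 1 to 4 it had 411, 1212, 1244 and 941 CPM. The sum therefore does not show whether the other markers of the list moved with miR-23a-3p, miR-27a-3p and miR-23b-3p. The part of blood in the levels of miR-23a-3p, miR-27a-3p and miR-23b-3p was not tested. In bulk tissue, fewer cells of a type and less RNA per cell cannot be told apart.

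The endothelial list (miR-126a-3p and miR-126a-5p, the arms of 1 hairpin), markers of the cells best known for these clusters, was lowest in BTBR replicate 2. So were all members except miR-23a-3p, miR-27a-3p and miR-23b-3p. Those stood at 182, 160.3 and 229 CPM in BTBR replicate 2, above B6 replicates 1, 3 and 4 and BTBR replicate 1. The summed level of the endothelial list was 2719 to 3365 CPM in B6 and 1739.6 CPM in BTBR replicate 2, against 2944 to 3182 CPM in the other BTBR mice. The mural list (miR-143-3p and miR-145a-5p, with 2 of 3 members measured) was lowest in the same library, with 5092 CPM against 6140 to 10167 CPM elsewhere. In the opposite direction, the microglia and immune list, with 4 of 5 members measured, had 1252 CPM in BTBR replicate 2 and 573 to 802 CPM in the other 7 libraries. The oligodendrocyte list ranged from 2238 to 4256 CPM in B6 and from 2289 to 2922 CPM in BTBR mice. None of the members of these 4 lists passed the adjusted threshold in edgeR's test, nor did those of the neuronal and choroid plexus lists. The part of these cell types in the member levels was not tested.

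Within every library, the paralogous products of the a and b clusters had unequal read counts, and the direction depended on the pair. miR-27b-3p exceeded miR-27a-3p by 22.1-fold (mean log2 ratio of a over b −4.47, SD 0.68, n = 8). The ratio of miR-27a-3p to miR-27b-3p counts was 0.0372, 0.0659, 0.0269 and 0.0275 in B6 replicates 1 to 4 and 0.0302, 0.0831, 0.0808 and 0.0476 in BTBR replicates 1 to 4. The ratio was lowest in B6 replicate 3 and highest in BTBR replicate 2, and the strains overlapped.

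miR-23a-3p and miR-23b-3p were far closer to each other. The ratio of miR-23a-3p to miR-23b-3p counts was 0.758, 0.798, 0.711 and 0.673 in B6 and 0.706, 0.794, 0.943 and 0.885 in BTBR mice, below 1 in all 8 libraries (mean log2 ratio −0.36, SD 0.17). For the 5p arms of miR-24 the order was turned. The ratio of miR-24-2-5p to miR-24-1-5p counts was 36.8, 33.8, 22.9 and 15.6 in B6 and 17.2, 33.1, 36.2 and 20.9 in BTBR mice. By reads, the 5p arm of the a cluster thus exceeded that of the b cluster by 25.2-fold (mean log2 ratio 4.66, SD 0.49).

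Over the 3 pairs summed, the a cluster had 0.137 times the reads of the b cluster (mean log2 ratio −2.87, SD 0.44), a value set largely by miR-27b-3p. Each of these 4 ratios lay on the same side of 1 in 8 of 8 libraries, and each reached the smallest p that a two-sided exact sign-flip permutation test over 8 libraries can give, 0.00781, which was also the value after Benjamini-Hochberg adjustment over 5 contrasts. The fifth contrast set the pairs against each other. The a over b ratio of miR-27 was 17.2-fold lower than that of miR-23 (mean log2 difference −4.11, SD 0.56, the same exact p), in 8 of 8 libraries. The mature miR-24-3p could not be divided between the clusters, because both make the same molecule.

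**Figure D3:**
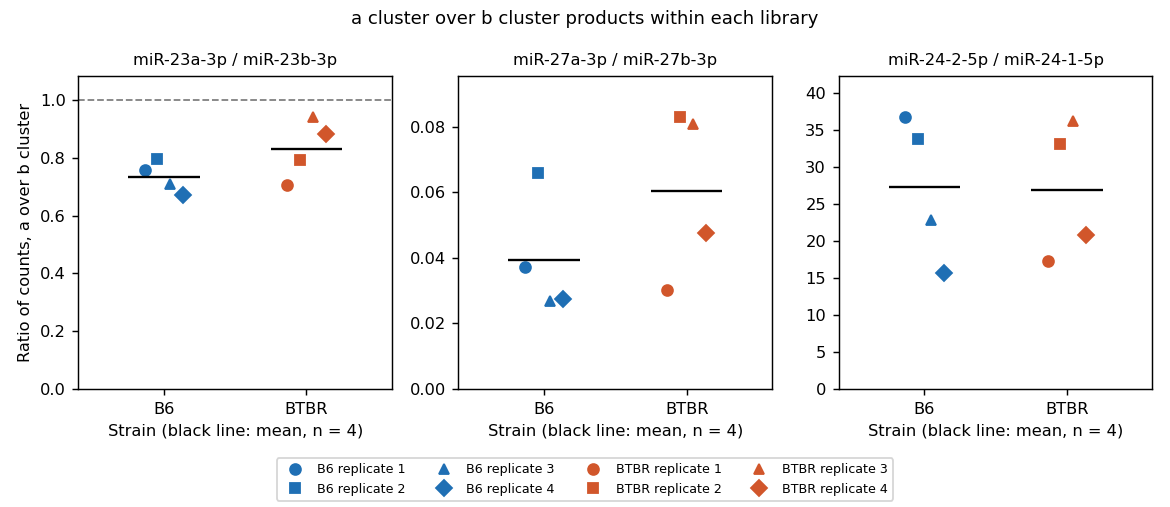
Ratio of a cluster to b cluster counts within each library for the 3 paralogous pairs, on linear axes from 0, with B6 in blue, BTBR in orange, symbols for replicate numbers, black lines for strain means (n = 4) and a dashed line at 1 in the miR-23 panel. The miR-23 ratio stays between 0.673 and 0.943, the miR-27 ratio between 0.0269 and 0.0831, and the miR-24 5p ratio between 15.6 and 36.8, with the strains overlapping in each panel.

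The a over b ratios did not differ between the strains beyond the spread of the mice. The difference of mean log2 ratios, BTBR minus B6, was 0.17 for miR-23 (standard error 0.11, exact permutation p = 0.2), 0.60 for miR-27 (standard error 0.46, exact permutation p = 0.229), −0.03 for the miR-24 5p arms (standard error 0.37, exact permutation p = 0.914) and 0.43 for the summed pairs (standard error 0.29, exact permutation p = 0.171). With Benjamini-Hochberg adjustment over 8 ratios, the lowest of these values was 0.457. The miR-27 difference was 0.41 without BTBR replicate 2 and 0.90 without BTBR replicate 1, that of the summed pairs 0.29 and 0.63 without the same mice, and that of miR-23 was 0.11 without BTBR replicate 3 and 0.25 without BTBR replicate 1. A single ratio with separated strains could reach no lower than 0.229 after this adjustment, so that the test could not call 1 ratio on its own.

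Products of the same hairpin and of the same cluster were also set against each other. The ratio of miR-27b-3p to miR-27b-5p, guide over passenger, was 53.8, 86.1, 57.3 and 54.4 in B6 and 62.7, 53.7, 64.3 and 57.6 in BTBR mice. B6 replicate 2 stood above all others, and the remaining 7 libraries lay between 53.7 and 64.3. The ratio of miR-24-3p to the sum of both miR-24 5p arms was 18.5 to 33.6 over the 8 libraries, with the strains mixed. Their strain differences were −0.05 and −0.10 on the log2 scale (exact permutation p = 0.857 and 0.743).

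miR-27a-3p and miR-23a-3p were present in nearly equal numbers, with a ratio of 1.02, 1.18, 0.866 and 0.907 in B6 and 0.867, 0.881, 1.20 and 0.853 in BTBR mice. In the b cluster, miR-27b-3p exceeded miR-23b-3p many times over, by 20.8, 14.2, 22.9 and 22.2 in B6 and by 20.3, 8.42, 14.1 and 15.8 in BTBR mice. The highest ratio was 1.41 times the lowest in the a cluster and 2.71 times the lowest in the b cluster. The strain difference in log2 ratio was −0.06 (standard error 0.15, exact permutation p = 0.629) in the a cluster and −0.49 (standard error 0.31, exact permutation p = 0.143) in the b cluster, with adjusted values of 0.914 and 0.457. The b cluster difference was −0.25 without BTBR replicate 2 and −0.67 without BTBR replicate 1.

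Across the 8 libraries, miR-23a-3p rose and fell with miR-27a-3p and with miR-23b-3p. Of 6 pairs compared on log2(CPM + 0.5), miR-23a-3p with miR-27a-3p had Pearson's r = 0.964 (exact permutation p = 9.92e-05, adjusted 0.000595 over the 6 pairs) and Spearman's rho = 0.952 (exact permutation p = 0.00114, adjusted 0.00342). miR-23a-3p with miR-23b-3p had r = 0.962 (exact permutation p = 0.000273, adjusted 0.000818) and rho = 0.952 (exact permutation p = 0.00114, adjusted 0.00342). Without B6 replicate 2 and BTBR replicate 3, the libraries farthest from the median of miR-23a-3p, r was 0.963 and 0.946, and with strain means subtracted it was 0.981 and 0.958. Reads divided between paralogs would enter both counts of a pair, and their part in the second relation was not tested.

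For miR-23b-3p and miR-27b-3p, both cut from the b cluster transcript, no relation passed the test over the 8 libraries, and the sign of r was not stable. Their r was −0.253 (exact permutation p = 0.662, adjusted 0.794) and rho 0.143 (exact permutation p = 0.752, adjusted 0.952). The value depended on single libraries and on the scaling. It was −0.857 without B6 replicate 2 and BTBR replicate 3 (exact permutation p = 0.0514, adjusted 0.0771, past the threshold of 0.1), 0.322 without BTBR replicate 2, and 0.348 with CPM on total counts. miR-27a-3p with miR-27b-3p had r = −0.0591 (exact permutation p = 0.888) and rho = −0.0238 (exact permutation p = 0.977), with r = −0.779 without the same 2 libraries (exact permutation p = 0.0208, adjusted 0.0417) and 0.425 with CPM on total counts.

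The remaining pairs rested on BTBR replicate 2. miR-27b-3p with miR-27b-5p had r = 0.678 (exact permutation p = 0.0904, adjusted 0.181) and rho = 0.214 (exact permutation p = 0.619), and r was −0.261 without BTBR replicate 2 and 0.938 without B6 replicate 2. Without BTBR replicates 2 and 4, the libraries farthest from the median, it was −0.724. miR-24-2-5p with miR-24-1-5p had r = 0.231 (exact permutation p = 0.577) and rho = 0.119 (exact permutation p = 0.793), and r was −0.382 without BTBR replicate 2 and −0.242 without B6 replicate 1 and BTBR replicate 2.

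**Figure D4:**
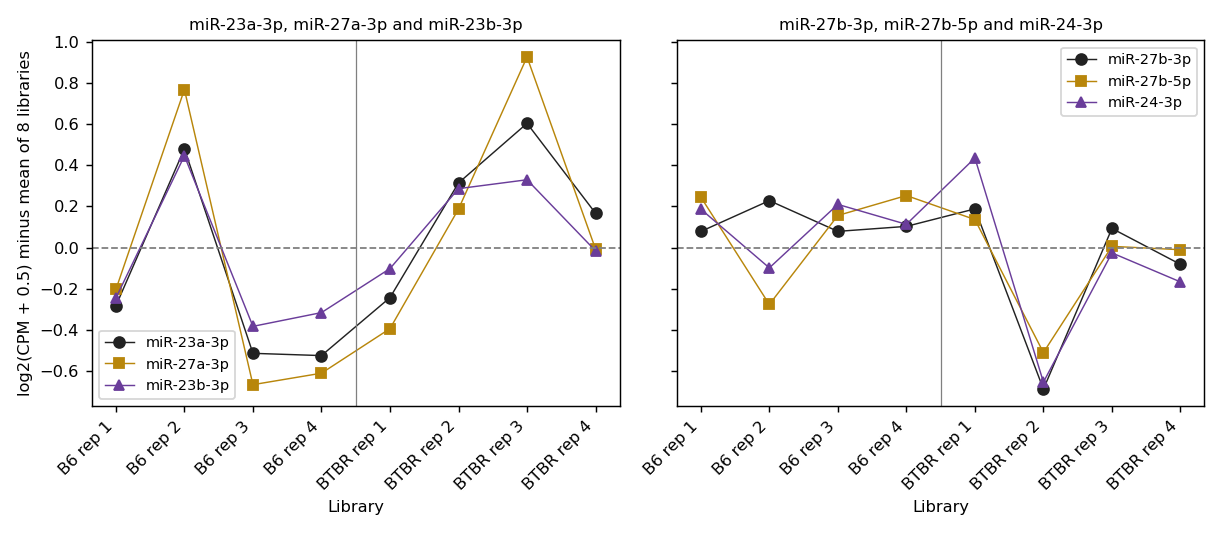
log2(CPM + 0.5) of 6 miRNAs in each library, minus the mean of that miRNA over the 8 libraries, with lines that only join the points of 1 miRNA. The left panel shows miR-23a-3p, miR-27a-3p and miR-23b-3p, which peak in B6 replicate 2 and BTBR replicate 3, and the right panel shows miR-27b-3p, miR-27b-5p and miR-24-3p, which are lowest in BTBR replicate 2, at −0.69, −0.51 and −0.65.

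The miRNAs most like the members were named by Pearson's r over the 8 libraries, with strain means subtracted, among miRNAs with a mean of at least 10 CPM. For miR-23a-3p the closest of 317 candidates was miR-27a-3p, with r = 0.981, followed by miR-342-3p with 0.960 and the red blood cell miRNA miR-486a-5p with 0.959. miR-23b-3p stood 5th at 0.958. For miR-27a-3p the order was miR-23a-3p, miR-23b-3p with 0.929 and miR-342-3p with 0.927. For miR-23b-3p it was miR-342-3p with 0.976, miR-23a-3p and miR-668-3p with 0.938, while its cluster neighbour miR-27b-3p ranked 175th. miR-342-3p, an intronic miRNA of Evl, stood at 159.9, 436, 141 and 166 CPM in the B6 mice, and at 157, 361, 394 and 218 CPM in the BTBR mice, with the same 4 high libraries.

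miR-27b-3p was most like miR-136-3p with 0.991, miR-487b-3p with 0.985 and let-7c-2-3p with 0.974, and miR-24-3p ranked 35th for it with 0.821. miR-24-3p was most like miR-664-3p with 0.985, miR-33-5p with 0.966 and miR-22-3p with 0.957. miR-136-3p had 122 CPM in BTBR replicate 2 and 313 to 488 CPM in the other libraries, and miR-22-3p had 10339 CPM in that library and 16443 to 27470 CPM in the others. These values describe 8 libraries that share their scaling, and no test was made on them.

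miRNAs outside the clusters with the same or a shifted seed were found by sequence among the 367 of 422 miRNAs that matched RefSeq. miR-6369 has the seed of miR-24-3p, GGCUCAG, and had only 2.24 to 12.5 CPM. miR-128-3p, an abundant neuronal miRNA, has bases 2 to 8 that are shifted by 1 from the seed of miR-27.
miR-128-3p: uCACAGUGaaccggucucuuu
miR-27b-3p: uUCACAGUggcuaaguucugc
With 16954, 14882, 19066 and 17762 CPM in B6 and 26980, 15493, 22810 and 16973 CPM in BTBR mice, miR-128-3p exceeded miR-27b-3p in every library. Between the strains it differed by 0.26 on the log2 scale, with a standard error of 0.20 (edgeR, adjusted p = 0.690). The other miRNAs with shifted seeds were miR-7080-3p for miR-24-3p and miR-21a-5p and miR-21c for miR-27b-5p, and none of the 5 passed the adjusted threshold. miR-21a-5p had 4257 CPM in BTBR replicate 2, where miR-27b-5p was lowest, and 1377 to 2163 CPM elsewhere.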

How the data were processed

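Small RNA libraries (Illumina TruSeq Small RNA) were made from the hippocampi of 8 single mice. The authors checked the reads with FastQC 0.11.2, removed adapters, mapped them to GRCm38 with sRNAbench, which runs Bowtie, assigned reads lying within miRBase coordinates, and deposited whole-number counts for 422 miRNAs, each with at least 1 read in every library. The study's own table gives some of these counts as fractions, among them those of miR-23a-3p, miR-23b-3p, miR-27a-3p and miR-27b-3p, as reads divided between similar miRNAs would give, and the deposited counts are rounded values. A rule for dividing reads is not given in the sources used here. Counts carry no molecular identifiers.

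Samples were grouped by their titles. The members and marker lists were chosen with earlier results of these data known. Counts were analysed with edgeR 4.0.16 (TMM, quasi-likelihood test, no covariates) in R 4.3.3, with Benjamini-Hochberg adjustment over the 422 miRNAs and the study's threshold of 0.1. DESeq2 1.42.0 and limma 3.58.1 served as alternatives, beside other scalings, a filter on low counts, a replicate block and each mouse left out in turn. Log2 ratios took each count plus 0.5. Exact tests were computed in Python 3.11.15 with scipy 1.17.1, two-sided. The edgeR, DESeq2 and limma-voom fits, the replicate block and the low-count filter were tested on simulated counts. The exact permutation test of strain and the sign-flip test were tested on simulated null values, and the correlation test on identical values only. The 8 members, the 3 miRNAs most like each of 5 members, and seed relatives are named. The 6 miRNAs in the plot of profiles by library, and the use of CPM on total counts for correlations between members, were chosen after values were seen. Coordinates come from GENCODE M21 and sequences from RefSeq.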

Additional observations from a re-analysis of the deposited data

Results flagged for a closer look

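Each of the 16 groups of 4 CPM values and the 16 groups of 4 ratios was checked for a highest or lowest library whose gap to the next, divided by the range of the group, exceeded Dixon's 95% critical value for 4 samples, which chance passes in about 1 group in 20. Of 32 groups, 4 passed. B6 replicate 2 was the highest B6 library in 3 of them, with 255.8 CPM of miR-23b-3p against 144 to 158 CPM, 3643 CPM of miR-27b-3p against 3283 to 3339.6 CPM, and a ratio of miR-27b-3p to miR-27b-5p of 86.1 against 53.8 to 57.3. BTBR replicate 3 had a ratio of miR-27a-3p to miR-23a-3p of 1.20 against 0.853 to 0.881 in the other BTBR mice.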

How the results depend on the processing

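No member passed the adjusted threshold under any of the 14 alternatives, and the 5 comparisons of a with b products kept their direction under theirs, and their call wherever a test was run. Within 1 strain alone they were values without a test. CPM on total counts moved the median log2 fold change of all miRNAs from 0.02 to 0.15, the values of miR-24-2-5p and miR-24-3p to 0.033 and 0.0068, those of miR-27b-3p, miR-27b-5p and miR-24-1-5p to −0.061, −0.0056 and 0.19, and the count of miRNAs called from 7 to 4; the DESeq2 Wald test called 21 and limma-voom 6. Same-numbered mice were not treated as pairs, and the labels tie no numbers to a litter or day. Correlations of the deviations from strain means were −0.151 to 0.0516 for mice with the same number and −0.280 to 0.212 for mice with different numbers. Such correlations cannot decide whether mice were matched. A replicate block called 3 miRNAs and turned miR-24-1-5p to −0.070.

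With each mouse left out in turn, 3 (without BTBR replicate 3 or 4) to 13 (without B6 replicate 2) miRNAs were called, and 4 without BTBR replicate 1. Log2 fold changes ranged from −0.00096 to 0.78 for miR-27a-3p and from −0.23 to 0.18 for miR-24-1-5p. Strain differences in log2 ratio ranged from −0.27 to 0.16 for miR-24-2-5p over miR-24-1-5p, from −0.18 to 0.021 for miR-27a-3p over miR-23a-3p, from −0.12 to 0.11 for miR-27b-3p over miR-27b-5p, and from −0.26 to 0.022 for miR-24-3p over its 5p arms. Pearson's r ranged from −0.552 to 0.322 for miR-23b-3p with miR-27b-3p, from −0.275 to 0.199 for miR-27a-3p with miR-27b-3p, from −0.382 to 0.445 for the miR-24 5p arms, and from −0.261 to 0.938 for the arms of miR-27b.

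Without the 2 farthest libraries, r in these 4 pairs was −0.857, −0.779, −0.242 and −0.724, and the first 2 then passed 0.1 (exact permutation p adjusted over 6 pairs, 0.0771 and 0.0417), as did the arms of miR-27b without B6 replicate 2 (0.0563) and with CPM on total counts (0.0893). CPM on total counts gave 0.348 and 0.425 for the first 2 and 0.776 for the arms of miR-27b, and subtracting strain means gave 0.098 for miR-27a-3p with miR-27b-3p. The cause of these moves was not tested. The 8 reads of miR-24-1-5p in 1 library limit what can be seen of it.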
